A study of Mus musculus with 4 samples.

Results

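The axon guidance ligands and receptors measured here were 68 of the 20136 genes counted in single cells of the BNST, which is the bed nucleus of the mouse stria terminalis and belongs to the extended amygdala. They were chosen by symbol: every ephrin, Eph receptor, numbered semaphorin, plexin, neuropilin, Slit, Robo, netrin, Unc5 receptor and Dcc that was present in all 4 count tables. Of 72 matching genes in any table, Efna4, Epha1, Ntn5 and Robo3 were missing from at least 1 table and were left out. The 68 comprised 7 ephrins, 13 Eph receptors, 20 semaphorins, 9 plexins, 2 neuropilins, 3 netrins, 2 netrin-G proteins, 5 netrin receptors, 3 Slits, 3 Robo receptors and Unc50, which matched by name alone and is not a guidance receptor. The study profiled single cells from BNST tissue punches of wildtype male C57BL/6J mice with Drop-seq. In this droplet assay a barcode marks the cell and a unique identifier (UMI) marks each captured transcript. The mice lived under reversed 12 h light and dark periods, and their age is not given in the sources used here. There were 4 libraries, each of cells pooled from 6 mice, and no treatment or control group. Cell classes were therefore compared within the same 4 libraries. The p-values set a class difference against variation from library to library, where each library is 1 pool and 1 batch. The test used, that of edgeR, estimates this variation with information shared across genes. A small p-value therefore does not rest on a gene's own spread over 4 libraries alone.

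Guidance molecules steer growing axons and migrating cells, and many remain in the adult brain, where they act at synapses, on glia and on vessels. Ephrins are membrane-bound ligands of the Eph receptor tyrosine kinases, and both partners can signal into the cell that carries them. Semaphorins, secreted or membrane-bound, act through plexins, for which neuropilins are co-receptors of secreted semaphorins. Netrins bind Dcc and the Unc5 receptors, Slits bind Robo receptors, and the membrane-anchored netrin-G proteins bind adhesion partners on other neurons.

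Cells were assigned to classes by the UMIs of fixed marker genes, since no deposited cell annotation was used, so the classes are marker-defined and the names below stand for such cells. Of 4181 cells kept, 4052 (96.9%) passed a class gate, among them 2500 neurons, 917 oligodendrocytes, 406 astrocytes, 134 oligodendrocyte precursors and 51 endothelial cells. Libraries 1 to 4 held 1281, 889, 837 and 1174 kept cells, with 2640399 to 5652342 UMIs in all barcodes, and no kept barcode was shared between libraries. Median depth was 3231 UMIs in neurons, 1386 in oligodendrocytes, 970.5 in precursors, 814 in astrocytes and 808 in endothelial cells. Endothelial sums could be formed in libraries 1 and 2 alone, from 24 and 13 cells, so that endothelial values are n = 2. Markers kept out of the gates were highest in their own class, with the neuron list at 2.08% of its neuronal level in oligodendrocytes, 2.70% in astrocytes, 2.39% in endothelial cells and 7.26% in precursors. The astrocyte list reached 13.9% of its own level in precursors, and the precursor list 24.1% in oligodendrocytes and 16.5% in astrocytes. In the endothelial sums 4 of 5 mural cell markers were detected, at 1583 to 1966 CPM together, and their part in the endothelial values was not tested.

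UMIs were summed per class and library, and a level is given as CPM, the UMIs of a gene per 1000000 UMIs of that class sum. The method reads the end of a transcript and CPM is not per length, so levels are compared between cells for 1 gene and never between genes. A CPM in a class sum is a share of that class's RNA and does not depend on how many cells of the class were recovered. A level of 0 UMIs over all libraries of a class leaves room for up to 1.93 CPM in oligodendrocytes, 7.99 in astrocytes, 19.6 in precursors and 56.6 in endothelial cells, counting error only. Together the 68 genes took 1979.7, 2136, 3026 and 2747 CPM of the neuronal sums of libraries 1 to 4, 1853, 1868, 2614 and 2454 CPM in oligodendrocytes, 1171, 1088, 1603 and 1757 CPM in astrocytes, 2362, 2405, 3456 and 2987 CPM in precursors, and 2989.9 and 3176 CPM in the endothelial sums of libraries 1 and 2. In each of the 4 classes with all libraries the summed level was lower in libraries 1 and 2 than in libraries 3 and 4. Library was a block in every fit, since the sums compared come from the same pools. Neurons had UMIs of 66 of the 68 genes, precursors of 52, oligodendrocytes of 50, astrocytes of 48 and endothelial cells of 28, counts that depend on depth, and the neuronal sums were the deepest.

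**Figure D1:**
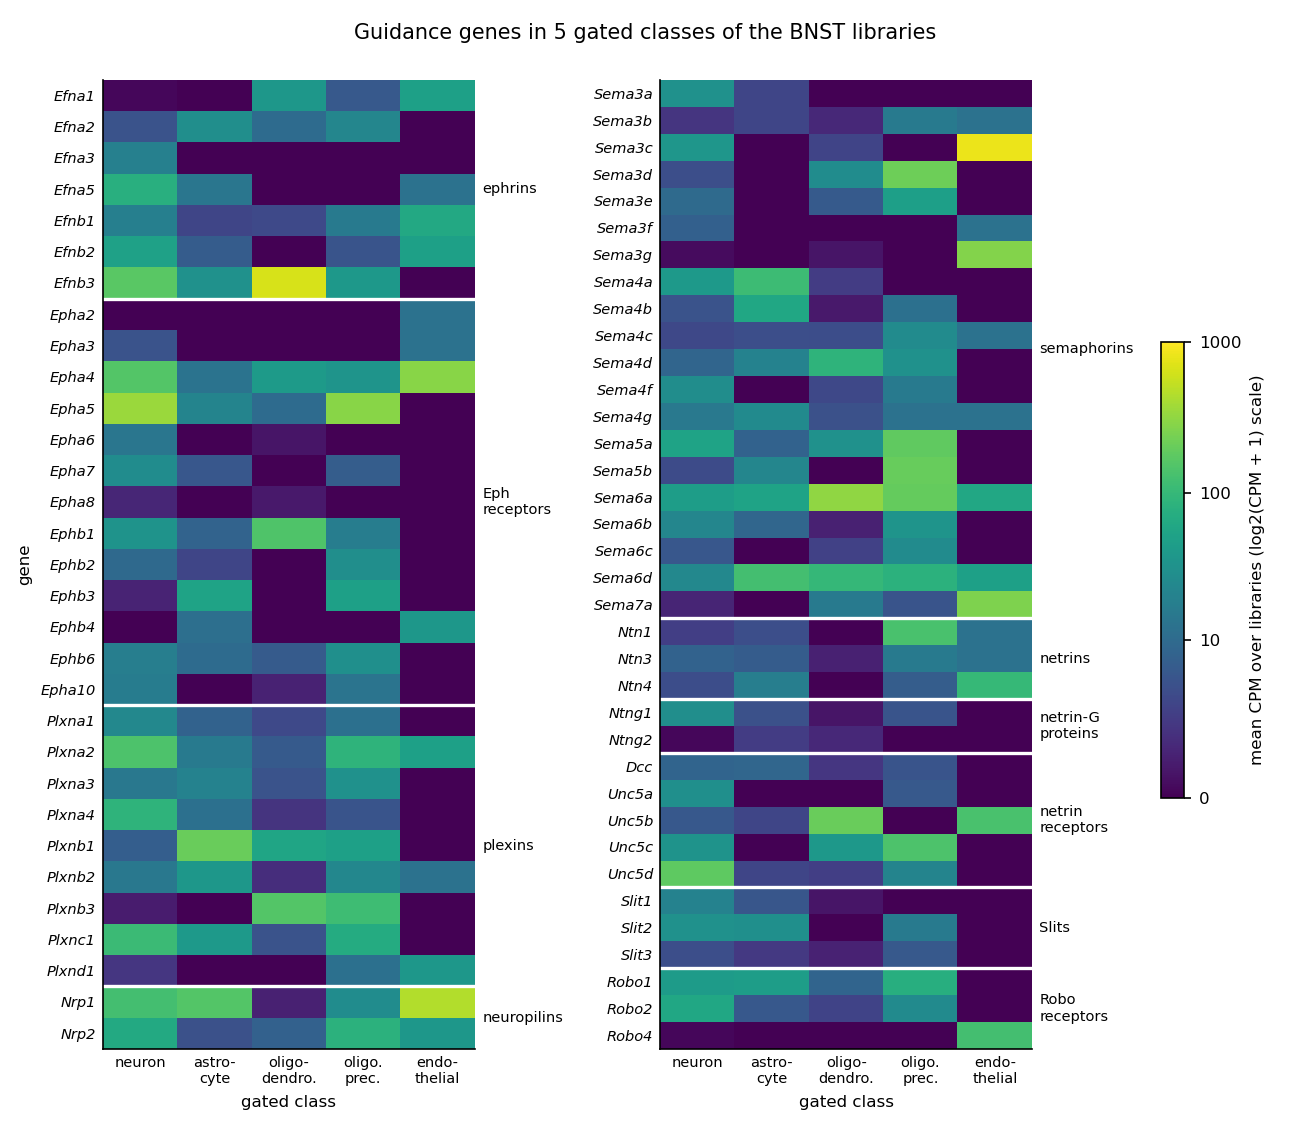
Mean level of 67 guidance genes (Unc50 left out) in gated neurons, astrocytes, oligodendrocytes, oligodendrocyte precursors and endothelial cells; rows are genes grouped by family, columns classes, and colour the mean CPM over libraries (n = 4; n = 2 in endothelial cells) on a log2(CPM + 1) scale. Efna5, Epha5, Plxna4 and Unc5d are brightest in neurons, while other members stand out elsewhere, such as Efnb3 in oligodendrocytes, Plxnb1 in astrocytes, Ntn1 and Sema5b in precursors and Sema3c in endothelial cells.

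The first comparison asked which guidance genes differed between neurons and each glial or vascular class. Oligodendrocytes had more of the ligands Efnb3, Sema6a and Sema4d and of the receptors Plxnb3 and Unc5b than neurons, and almost no Nrp1. Astrocytes stood out by Plxnb1 and Sema4a, precursors by Ntn1, Sema5b and Unc5c, and endothelial cells by Sema3c, Sema3g and Sema7a. Sema6d was higher than in neurons in astrocytes, oligodendrocytes and precursors alike. Neurons had more of Epha5, Epha4, Unc5d, Plxna4 and Plxnc1 than at least 1 of these classes. Only 25 of the 68 genes passed edgeR's filter on low counts, which a gene can pass through the class where it is high, so the counts that follow describe these 25 and do not support a difference. Against neurons, 11 were higher and 10 lower in oligodendrocytes at an adjusted p under 0.05 by edgeR's quasi-likelihood test with Benjamini-Hochberg adjustment over all genes, where 74.7% of all genes tested passed (28.1% higher and 46.5% lower). In astrocytes 4 were higher and 11 lower (all genes, 66.9%, with 28% higher and 38.9% lower), in precursors 9 and 9 (all genes, 50.1%, with 19.9% higher and 30.2% lower), and in endothelial cells 5 and 6 (all genes, 44.5%, with 13% higher and 31.4% lower). All 25 differed among the 5 classes, as did 90.6% of all genes, so that a difference between these classes was the rule for any gene of this abundance. Unc50, which is not a guidance receptor, is counted among the genes tested here and below. It is also among the 11 higher in oligodendrocytes.

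Median log2 fold changes of the 25 genes were 0.32 in oligodendrocytes (all genes, -0.39), -2.01 in astrocytes (all genes, -0.31), -0.65 in precursors (all genes, -0.30) and -3.71 in endothelial cells (all genes, -1.04). With genes at 0 UMIs in a class put at the bound that 3 counts give, or at 0 where that bound shows no difference, these medians became 0.32, 0.00, 0.00 and 0.00, so the negative medians outside oligodendrocytes depended on genes with 0 UMIs. Scaling with DESeq2 size factors raised the median of all genes by 0.22 in astrocytes, 0.20 in oligodendrocytes, 0.28 in precursors and 0.48 in endothelial cells and turned the sign of none of the 25 genes. Plain CPM of the pooled sums moved it by -0.04, -0.14, 0.43 and 0.77 in the same order. This turned the sign of 3, 0, 1 and 5 of the 25 genes, none of them called. A printed CPM can therefore differ in direction from the fold change beside it, most in precursors and endothelial cells. A fit with no filter, in which all 68 genes were tested, gave 13 higher and 36 lower in oligodendrocytes (all genes, 39.7%, with 14.2% and 25.5%), 9 and 27 in astrocytes (all genes, 31.2%, with 11.2% and 20%), 9 and 19 in precursors (all genes, 20.7%, with 5.23% and 15.5%), and 9 and 8 in endothelial cells (all genes, 16.6%, with 4.71% and 11.9%). Unc50 is counted in that fit among the genes higher in oligodendrocytes and among those lower in endothelial cells. For a gene with 1 to 3 UMIs on 1 side, the ratio of its level pooled over libraries to that in the compared cells follows the test, with the exact 95% interval for counting error. Genes given below from the unfiltered fit were chosen after their values were seen. Where the call of a guidance gene in the filtered fit was lost under another setting or with 1 library left out, this follows the values. Calls of the unfiltered fit and of the signalling lists were not recomputed under other settings, and thinned cells are cells reduced to 1000 UMIs.

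The sequence before the start site is shown for 4 genes with a large class difference. Plxnb3 and Unc5b are receptors higher in oligodendrocytes than in neurons, and Sema3g and Robo4 are genes of endothelial cells. In precursors Plxnb3 was also higher, whereas Unc5b had no UMI there. Each sequence is the 250 bases upstream of the RefSeq start on GRCm38.p6, 5′ to 3′ on the gene's strand, and RefSeq held such a window for 58 of the 68 genes. Capitals mark ACAAAG, the core read by Sox factors, GGAAGT, a core of ETS factors, and CAGCTG, an E-box, searched on both strands, with no overlap among the matches.
Plxnb3 (chrX:73756853-73757102, plus strand): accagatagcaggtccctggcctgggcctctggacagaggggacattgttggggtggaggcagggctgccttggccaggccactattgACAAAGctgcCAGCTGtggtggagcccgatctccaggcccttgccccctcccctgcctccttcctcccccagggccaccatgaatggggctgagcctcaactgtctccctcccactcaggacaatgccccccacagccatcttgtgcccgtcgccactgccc
Unc5b (chr10:60831582-60831831, minus strand): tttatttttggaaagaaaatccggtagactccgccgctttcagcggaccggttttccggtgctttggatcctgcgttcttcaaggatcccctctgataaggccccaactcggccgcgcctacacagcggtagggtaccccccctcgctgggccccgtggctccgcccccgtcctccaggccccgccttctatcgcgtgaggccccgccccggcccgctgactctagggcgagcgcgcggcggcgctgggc
Sema3g (chr14:31217623-31217872, plus strand): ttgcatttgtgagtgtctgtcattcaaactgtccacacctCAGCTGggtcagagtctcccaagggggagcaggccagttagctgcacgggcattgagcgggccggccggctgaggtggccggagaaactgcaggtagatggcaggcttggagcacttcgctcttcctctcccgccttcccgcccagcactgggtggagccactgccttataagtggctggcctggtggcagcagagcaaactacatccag
Robo4 (chr9:37401722-37401971, plus strand): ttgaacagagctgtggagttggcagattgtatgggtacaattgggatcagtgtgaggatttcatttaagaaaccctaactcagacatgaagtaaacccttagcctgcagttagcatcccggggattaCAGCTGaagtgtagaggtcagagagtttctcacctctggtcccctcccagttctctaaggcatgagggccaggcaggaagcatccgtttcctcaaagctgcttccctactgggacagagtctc
Plxnb3 held 1 ACAAAG and 1 CAGCTG, Sema3g and Robo4 held 1 CAGCTG each, and Unc5b held none of the 3 motifs. Among 32851 RefSeq windows of this length, 16.5% held ACAAAG, 19.7% GGAAGT and 13.001% CAGCTG, and a match is a description of these letters. The G and C content was 65.2% for Plxnb3, 66.8% for Unc5b, 60.4% for Sema3g and 49.6% for Robo4.

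Among the ephrins, Efnb3, a transmembrane ligand of EphA4 and EphB receptors, was the 1 member that passed the filter. Its level in oligodendrocytes of libraries 1 to 4 was 512, 514, 764 and 838 CPM, against 137, 164, 176 and 203 CPM in neurons. Every oligodendrocyte sum lay above every neuronal sum (657 ± 169 CPM (SD, n = 4) against 170.0 ± 27.4 CPM; edgeR log2 fold change 2.10, SE 0.11, adjusted p = 1.09e-75). In astrocytes Efnb3 stood at 0, 12.9, 38.6 and 76.4 CPM (log2 fold change -2.43, SE 0.36, adjusted p = 5.59e-11) and in precursors at 0, 0, 101 and 53.3 CPM (log2 fold change -2.26, SE 0.45, adjusted p = 2.79e-06), both below all neuronal values. No Efnb3 UMI was seen in endothelial cells, at least 2.58-fold lower than in neurons. The other ephrins were tested without the filter. Efna1, a GPI-anchored ligand of EphA receptors, had 38.1 ± 12.8 CPM (59 UMIs) in oligodendrocytes and 1 UMI in neurons, a difference that passed (log2 fold change 7.34, ratio 368, interval 63.6 to 14783), while its endothelial value rested on 4 UMIs of 1 library. Efna5, also GPI-anchored, had 77.5 ± 24.0 CPM in neurons and 0 UMIs in oligodendrocytes and precursors, at least 36.0-fold lower in oligodendrocytes. Efnb2 (50.8 ± 10.6 CPM in neurons) and Efna3 (19.2 ± 5.33 CPM) were likewise without a UMI in oligodendrocytes, at least 25.5-fold lower and at least 10.5-fold lower, and exons of Efna3 overlap a gene on the opposite strand. Efna2 was higher in astrocytes, at 29.3 ± 15.1 CPM against 4.90 ± 1.59 CPM (log2 fold change 2.37), and Efnb1 was lower there (log2 fold change -2.91, ratio 0.143, interval 0.00361 to 0.809) and in oligodendrocytes (log2 fold change -2.22). Thus 3 ephrins, Efnb3, Efna1 and also Efna2, were higher and 4 lower in oligodendrocytes than in neurons without the filter (all genes, 14.2% higher and 25.5% lower). Without library 4, Efnb3 in astrocytes had a log2 fold change of -3.11. Without library 3, Efnb3 in precursors had a log2 fold change of -3.34. Efnb3 in endothelial cells was not called without library 1 (adjusted p = 0.0896) or with thinned cells.

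Of the 13 Eph receptors, Epha4, Epha5 and Ephb1 passed the filter. Epha5, which binds A-type ephrins such as Efna5, had 345, 320.0, 429 and 309 CPM in neurons and 165, 338, 323 and 347 CPM in precursors, so that the ranges of these classes overlapped. The fitted difference of precursors from neurons passed (log2 fold change -0.65, SE 0.24, adjusted p = 0.0139) and had that sign in 2 of 4 libraries. Oligodendrocytes had 9.52, 15.1, 9.83 and 6.89 CPM (log2 fold change -4.90, SE 0.24, adjusted p = 1.76e-94), astrocytes 25.8, 0, 9.66 and 50.9 CPM (log2 fold change -3.94, SE 0.34, adjusted p = 5.32e-30), and endothelial cells no UMI (at least 5.95-fold lower). All oligodendrocyte and astrocyte values were below the lowest neuronal value. Epha4, which accepts both A- and B-type ephrins, had 104, 123, 190.5 and 203 CPM in neurons, above every value in oligodendrocytes (42.3 ± 16.7 CPM; log2 fold change -1.65, SE 0.20, adjusted p = 2.40e-16), precursors (34.8 ± 15.7 CPM; log2 fold change -2.60, SE 0.51, adjusted p = 1.78e-06) and astrocytes (12.8 ± 14.8 CPM; log2 fold change -3.72, SE 0.48, adjusted p = 5.43e-14). Endothelial Epha4 was 201 and 378 CPM from 13 UMIs, and its difference from neurons did not pass (log2 fold change 0.62, adjusted p = 0.303). Epha5 in precursors was not called without library 1 or 3 (log2 fold change -0.45 and -0.50), under DESeq2, with no library block, at a mitochondrial limit of 5% or with DESeq2 size factors. Without library 4, Epha5 in astrocytes had a log2 fold change of -4.61. Without library 2 or 3, Epha4 in astrocytes had a log2 fold change of -4.41 and -3.01 respectively.

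Ephb1, a receptor of B-type ephrins, had 87.6, 112, 263 and 128 CPM in oligodendrocytes against 22.0, 34.2, 37.2 and 43.1 CPM in neurons, with no overlap (log2 fold change 2.23, SE 0.19, adjusted p = 1.63e-31). In astrocytes Ephb1 was 0, 0, 19.3 and 12.7 CPM, from 3 UMIs (log2 fold change -2.01, SE 0.72, adjusted p = 0.00876, ratio 0.254, interval 0.0521 to 0.749), and in precursors 17.6 ± 12.0 CPM (log2 fold change -1.21, adjusted p = 0.204). Oligodendrocytes thus had the highest levels of both Efnb3 and Ephb1 among the 5 classes. Without the filter, 1 Eph receptor was higher and 8 were lower in oligodendrocytes than in neurons (all genes, 14.2% and 25.5%), and 2 were higher and 6 lower in astrocytes (all genes, 11.2% and 20%). Ephb3 was glial in that fit, at 51.7, 25.9, 77.2 and 63.7 CPM in astrocytes (21 UMIs; log2 fold change 5.47, SE 0.73, adjusted p = 1.14e-12) and 0, 84.4, 60.6 and 53.3 CPM in precursors (7 UMIs; log2 fold change 4.57), against 0.976 ± 0.897 CPM in neurons and 0 UMIs in oligodendrocytes. Epha7 was lower in astrocytes (log2 fold change -2.53, ratio 0.200, interval 0.0241 to 0.730) and precursors (log2 fold change -2.81, ratio 0.245, interval 0.00619 to 1.38) and at least 13.8-fold lower in oligodendrocytes, from 27.7 ± 7.14 CPM in neurons. Epha6 (13.9 ± 4.74 CPM in neurons; log2 fold change -3.84, ratio 0.0511, interval 0.00128 to 0.290) and Epha10 (17.1 ± 4.63 CPM; -3.26, ratio 0.0790, interval 0.00948 to 0.290) were lower in oligodendrocytes, and exons of both overlap genes on the opposite strand. Ephb2 had 9.65 ± 2.87 CPM in neurons and 29.0 ± 21.2 CPM (4 UMIs) in precursors, and Ephb6 17.95 ± 5.51 CPM and 30.2 ± 24.8 CPM (5 UMIs), differences that did not pass. Epha2 (1 UMI, endothelial), Epha3 (41 UMIs in neurons), Epha8 (10 UMIs) and Ephb4 (5 UMIs in astrocytes and 3 in endothelial cells) were near the limit of detection. Ephb1 in astrocytes was not called without library 1 or 2 (log2 fold change -1.65 and -1.63), under DESeq2, with thinned cells or at a minimum of 800 genes. Without library 3, Ephb1 in astrocytes had a log2 fold change of -2.83.

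**Figure D2:**
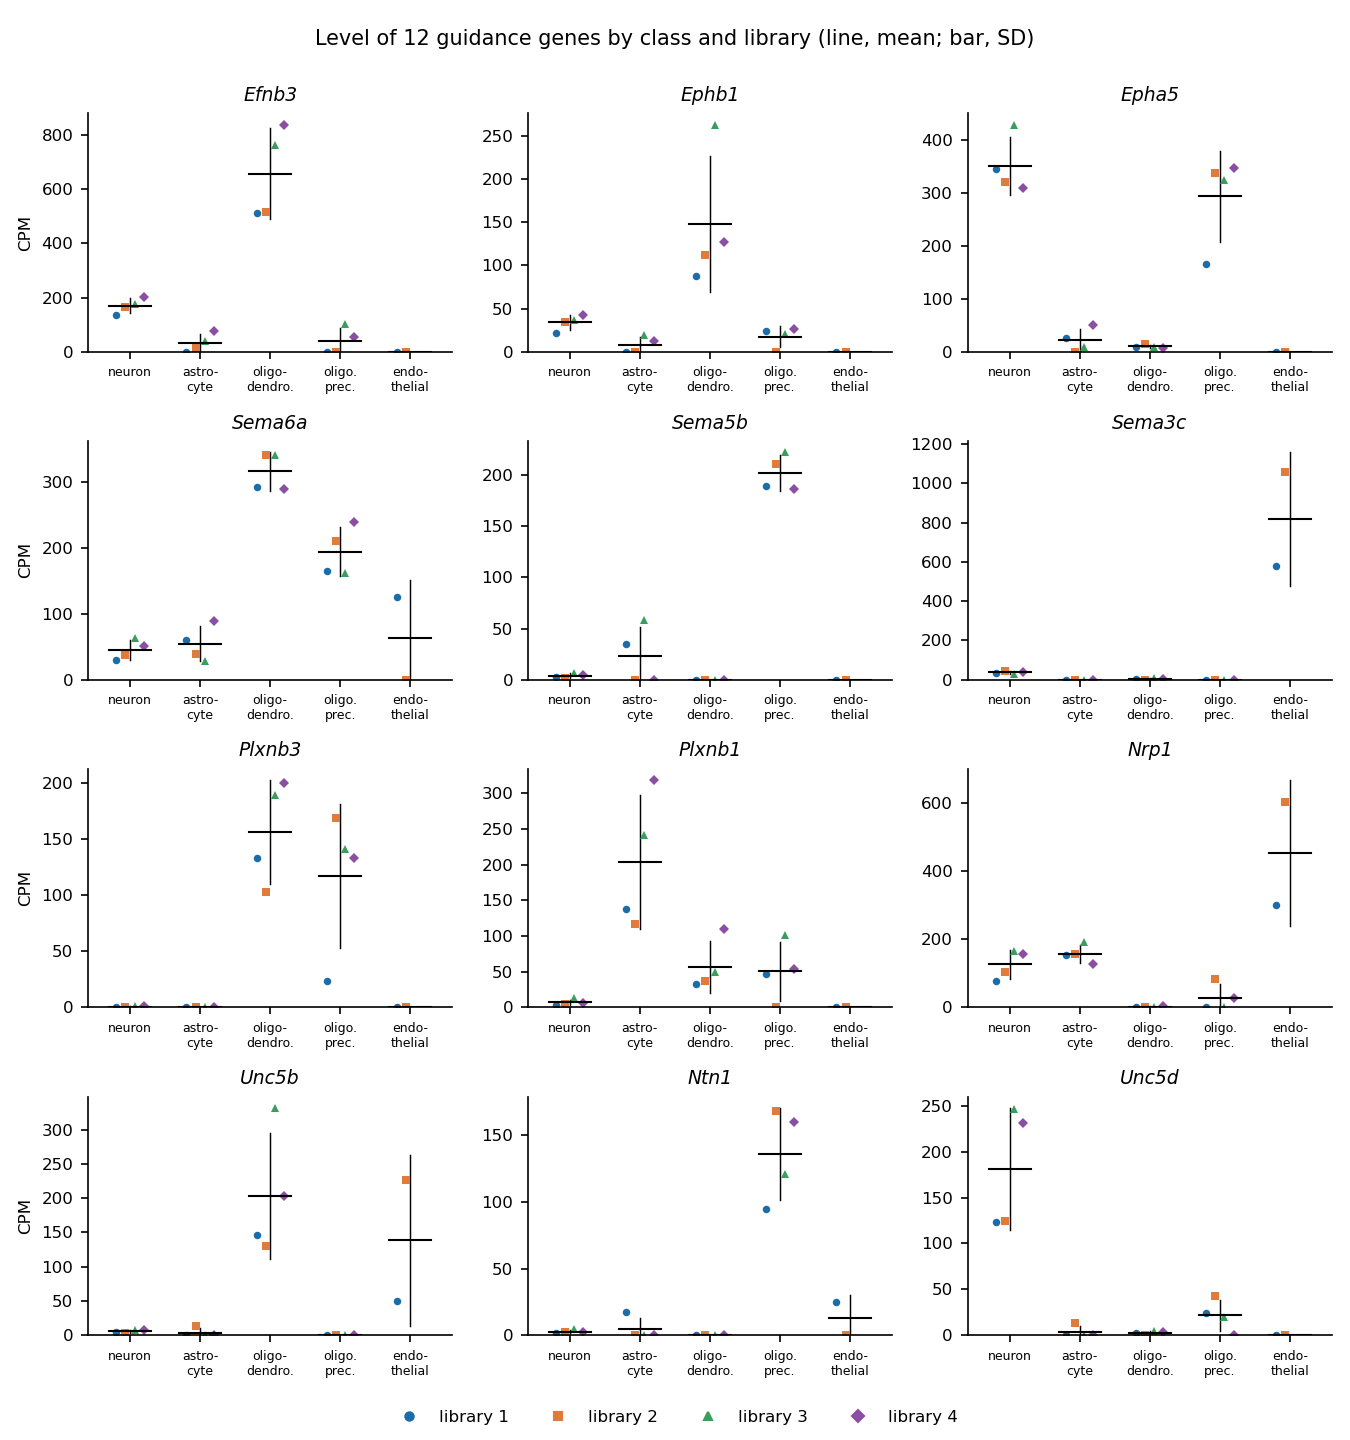
Level in CPM (vertical axis, from 0) of 12 guidance genes in the 5 gated classes (horizontal axis); each marker is the class sum of 1 library, horizontal lines are means and vertical bars SDs over the libraries shown (n = 4, endothelial n = 2). Efnb3, Ephb1, Sema6a and Unc5b separate oligodendrocytes from neurons in every library, Sema5b and Ntn1 separate precursors, and Epha5 in the precursors of libraries 2, 3 and 4 lies within the neuronal range.

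Of the 20 semaphorins 10 passed the filter, and different members were highest in each class. Sema6a, a transmembrane ligand of A-type plexins, had 293, 342, 341 and 289.5 CPM in oligodendrocytes, 165, 211, 162 and 240.0 CPM in precursors and 29.8, 37.2, 63.7 and 51.6 CPM in neurons. Neither glial range touched the neuronal range (oligodendrocytes, log2 fold change 3.03, SE 0.14, adjusted p = 1.45e-95; precursors, log2 fold change 1.75, SE 0.36, adjusted p = 5.83e-06). In astrocytes Sema6a was 54.3 ± 26.6 CPM and its difference from neurons did not pass (log2 fold change 0.38, adjusted p = 0.377). Sema4d, the membrane-bound ligand of Plxnb1, had 109, 115, 61.4 and 72.4 CPM in oligodendrocytes against 6.66, 8.93, 8.63 and 9.94 CPM in neurons (log2 fold change 3.59, SE 0.28, adjusted p = 5.51e-38). Sema6d was above neurons (20.2, 20.8, 23.2 and 33.6 CPM) in every library of astrocytes (103, 104, 232 and 63.7 CPM; log2 fold change 2.49, SE 0.32, adjusted p = 2.89e-14), oligodendrocytes (98.4 ± 14.7 CPM; log2 fold change 2.15, SE 0.22, adjusted p = 9.96e-23) and precursors (84.2 ± 26.5 CPM; log2 fold change 1.42, SE 0.53, adjusted p = 0.0166). Sema4a separated astrocytes from the oligodendrocyte lineage, with 86.1, 129, 154 and 76.4 CPM in astrocytes, 31.6, 30.8, 43.8 and 51.6 CPM in neurons and 4 UMIs in all oligodendrocytes. It was higher in astrocytes (log2 fold change 1.61, SE 0.33, adjusted p = 2.35e-06), lower in oligodendrocytes (log2 fold change -3.65, SE 0.52, adjusted p = 6.09e-12) and had no UMI in precursors (at least 1.92-fold lower). Sema4b, tested without the filter, had the same order over astrocytes, neurons and oligodendrocytes, with 60.7 ± 37.5 CPM in astrocytes and 4.80 ± 1.10 CPM in neurons (log2 fold change 3.34), and 1 UMI in oligodendrocytes. Sema6a in precursors was not called with thinned cells. Sema6d in precursors was not called without library 1 (log2 fold change 1.08), with thinned cells, with no low-count filter or at a class gate ratio of 4. Sema4a in astrocytes was not called at a minimum of 800 genes. Sema4a in precursors was not called with thinned cells.

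Precursors had the highest levels of Sema5b, Sema5a and Sema3d. Sema5b, a transmembrane semaphorin, had 189, 211, 222 and 187 CPM in precursors and 2.22, 1.98, 6.64 and 4.73 CPM in neurons, far apart and even across libraries (log2 fold change 5.32, SE 0.54, adjusted p = 1.97e-21). It had 10 UMIs in astrocytes, in 2 of 4 libraries (log2 fold change 2.83, SE 0.75, adjusted p = 3.26e-04), and none in oligodendrocytes, at least 1.76-fold lower than in neurons. Sema5a, a ligand of Plxnb3, had 189, 253, 243 and 53.3 CPM in precursors against 39.2, 47.1, 72.3 and 54.9 CPM in neurons (log2 fold change 1.41, SE 0.37, adjusted p = 4.86e-04), with the same sign in 3 of 4 libraries, and was lower in astrocytes (7.75 ± 5.46 CPM; log2 fold change -2.60, SE 0.66, adjusted p = 2.00e-04, ratio 0.162, interval 0.0332 to 0.475). Sema3d, a secreted semaphorin, had 189, 0, 384 and 293 CPM in precursors, with 0 UMIs in library 2, and 15.2, 33.3, 31.9 and 31.0 CPM in oligodendrocytes, against 1.73, 2.48, 8.63 and 4.26 CPM in neurons. Both differences passed (log2 fold change 5.46, SE 0.49, adjusted p = 6.00e-27, in 3 of 4 libraries; oligodendrocytes, log2 fold change 2.92, SE 0.44, adjusted p = 9.07e-11, in 4 of 4). Held-out astrocyte markers reached 13.9% of their own level in the precursor sums, and their part in these values was not tested. Sema5b in astrocytes was not called at a minimum of 800 genes. Sema5b in oligodendrocytes was not called without library 1 or 3 (adjusted p = 0.0525 and 0.0933), at a mitochondrial limit of 5%, with thinned cells, at a minimum of 800 genes or with doublets kept. Sema5a in precursors was not called at a class gate ratio of 4. Sema5a in astrocytes was not called with thinned cells. Without library 3, Sema3d in oligodendrocytes had a log2 fold change of 3.58.

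Endothelial sums held the most Sema3c, Sema3g and Sema7a, in 37 cells of 2 libraries. Where 1 of these libraries is left out, the fit takes the spread of the other classes for the lone endothelial sum. Sema3c, a secreted ligand that signals through neuropilins and plexin D1, had 578 and 1059 CPM in libraries 1 and 2 (37 UMIs) and 34.0, 46.1, 30.5 and 37.4 CPM in neurons (log2 fold change 3.71, SE 0.41, adjusted p = 7.41e-18). It was lower in oligodendrocytes (3.18 ± 3.13 CPM; log2 fold change -3.26, SE 0.50, adjusted p = 2.03e-10) and had no UMI in astrocytes (at least 4.598-fold lower) or precursors (at least 1.87-fold lower). Sema3g, a secreted ligand bound by Nrp2, had 327 and 227 CPM (16 UMIs) against 2 UMIs in all neurons (log2 fold change 8.88, SE 0.99, adjusted p = 9.18e-18, ratio 1832, interval 285 to 76807). Sema7a, a GPI-anchored ligand of plexin C1 and integrins, had 226 and 302 CPM (13 UMIs; log2 fold change 7.10, SE 0.89, adjusted p = 3.47e-14) and was also above neurons in oligodendrocytes (15.8 ± 11.5 CPM against 1.07 ± 0.446 CPM; log2 fold change 3.56, SE 0.62, adjusted p = 2.01e-08). No Sema5a UMI was found in endothelial cells, a 0 that leaves room for up to 56.6 CPM, more than the 53.4 CPM of neurons, so that its call as lower there sets no bound on the fold. Of the semaphorins below the filter, Sema3a, the secreted ligand of Nrp1, had 32.4 ± 7.89 CPM in neurons, 1 UMI in astrocytes and none in oligodendrocytes (at least 16.0-fold lower), precursors or endothelial cells. Sema4f (28.8 ± 10.9 CPM in neurons; log2 fold change -2.78) and Sema6b (23.0 ± 7.50 CPM; -4.57, ratio 0.0300, interval 0.000756 to 0.169) were lower in oligodendrocytes, while Sema3f had 61 UMIs in neurons and none in oligodendrocytes (at least 3.26-fold lower). Sema3e (9.998 ± 1.85 CPM in neurons, 47.7 ± 46.5 CPM in precursors), Sema4g (15.4 ± 6.87 CPM, 12.6 ± 14.6 CPM), Sema6c (5.51 ± 2.28 CPM, 26.9 ± 38.1 CPM), Sema4c (3.48 ± 0.753 CPM, 26.9 ± 38.1 CPM) and Sema3b (1.88 ± 1.17 CPM, 16.0 ± 19.7 CPM) did not pass between these classes. Sema3c in endothelial cells was not called with thinned cells. Without library 3, Sema3c in oligodendrocytes had a log2 fold change of -3.94. Sema3c in astrocytes was not called at a minimum of 800 genes. Sema3c in precursors was not called with thinned cells. Sema3g in endothelial cells was not called under DESeq2. Without library 3, Sema3g in endothelial cells had a log2 fold change of 9.48. Sema7a in endothelial cells was not called with thinned cells. Without library 1, Sema7a in oligodendrocytes had a log2 fold change of 4.42. Sema5a in endothelial cells was not called without library 1, 2 or 3 (adjusted p = 0.377, 0.160 and 0.0854), under DESeq2, with thinned cells, at a minimum of 800 genes, at a class gate ratio of 4, with doublets kept or with DESeq2 size factors.

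Among the plexins, Plxnb1 and Plxnb3 were glial, whereas Plxna2, Plxna4 and Plxnc1 had their highest levels in neurons. Plxnb3, the receptor of Sema5a, had 133, 103, 189 and 199.9 CPM in oligodendrocytes and 23.6, 169, 141 and 133 CPM in precursors, against 6 UMIs in all neurons (0.692 ± 0.573 CPM) and none in astrocytes or endothelial cells. It was higher than in neurons in every library (oligodendrocytes, log2 fold change 7.68, SE 0.34, adjusted p = 4.71e-112; precursors, log2 fold change 6.63, SE 0.73, adjusted p = 1.27e-18). Plxnb1, the receptor of Sema4d, had 138, 117, 241 and 318 CPM in astrocytes, 32.4, 36.3, 49.1 and 110.3 CPM in oligodendrocytes and 3.95, 4.47, 12.6 and 6.63 CPM in neurons (log2 fold change 4.98, SE 0.34, adjusted p = 3.24e-46; oligodendrocytes, log2 fold change 3.17, SE 0.32, adjusted p = 1.58e-22). In precursors Plxnb1 was 47.2, 0, 101 and 53.3 CPM (log2 fold change 2.72, SE 0.73, adjusted p = 5.94e-04), higher in 3 of 4 libraries, and its exons overlap a gene on the opposite strand. The highest level of Sema4d was thus in oligodendrocytes and that of its receptor Plxnb1 in astrocytes. Plxnb2, tested without the filter, had 37.8 ± 42.8 CPM in astrocytes and 14.9 ± 8.05 CPM in neurons (log2 fold change 1.06, adjusted p = 0.101), and was lower in oligodendrocytes (log2 fold change -3.03, ratio 0.0990, interval 0.0119 to 0.365). Without library 3, Plxnb1 in oligodendrocytes had a log2 fold change of 3.82.

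Plxna2 and Plxna4, receptors of Sema6a and of secreted semaphorins bound to neuropilins, and Plxnc1, the receptor of Sema7a, were highest in neurons. Plxna2 had 99.1, 106, 180.5 and 186 CPM in neurons, 6.01 ± 5.02 CPM in oligodendrocytes (log2 fold change -4.23, SE 0.31, adjusted p = 1.11e-40) and 16.3 ± 6.84 CPM in astrocytes (log2 fold change -3.04, SE 0.44, adjusted p = 3.63e-11), with less of a gap in precursors (94.5, 42.2, 162 and 53.3 CPM; log2 fold change -0.92, SE 0.38, adjusted p = 0.0328). Plxna4 had 72.5, 76.4, 113 and 95.1 CPM in neurons, 3 UMIs in oligodendrocytes (log2 fold change -5.22, SE 0.45, adjusted p = 2.77e-30, ratio 0.0228, interval 0.00470 to 0.0669), 4 in astrocytes (log2 fold change -2.94, SE 0.55, adjusted p = 2.88e-07), 1 in precursors (log2 fold change -4.09, SE 0.88, adjusted p = 1.43e-05, ratio 0.0772, interval 0.00195 to 0.432) and none in endothelial cells (at least 1.30-fold lower). Plxnc1 had 91.7, 106, 133 and 108 CPM in neurons, 4.85 ± 5.63 CPM in oligodendrocytes (log2 fold change -4.58, SE 0.37, adjusted p = 5.32e-34) and 41.1 ± 32.4 CPM in astrocytes (log2 fold change -1.26, SE 0.36, adjusted p = 9.26e-04), with no endothelial UMI (at least 1.71-fold lower). In precursors Plxnc1 was 69.2 ± 30.3 CPM (log2 fold change -0.97, adjusted p = 0.0535). Neuronal values of these 3 genes lay above all oligodendrocyte and astrocyte values. Without the filter Plxna1 was lower in oligodendrocytes (-2.55 on the log2 scale) and astrocytes (log2 fold change -1.74, ratio 0.365, interval 0.0747 to 1.08), Plxna3 in oligodendrocytes (-1.41), and Plxnd1 had 17 UMIs in neurons and 3 in endothelial cells (log2 fold change 4.49, adjusted p = 0.0507). Plxna2 in precursors was not called without library 2, 3 or 4 (log2 fold change -0.87, -1.17 and -0.62), under DESeq2, with no library block, at a mitochondrial limit of 5%, with thinned cells, at a minimum of 800 genes, at a class gate ratio of 4, at a class gate of 5 UMIs or with DESeq2 size factors. Without library 1, Plxna4 in oligodendrocytes had a log2 fold change of -5.98. Plxna4 in endothelial cells was not called without library 1 or 2 (adjusted p = 0.256 and 0.0531), under DESeq2, with thinned cells or at a minimum of 800 genes. Without library 1, 3 or 4, Plxnc1 in oligodendrocytes had a log2 fold change of -3.88, -3.80 and -5.24 respectively. Plxnc1 in astrocytes was not called with thinned cells or at a minimum of 800 genes. Plxnc1 in endothelial cells was not called without library 1 (adjusted p = 0.168), with thinned cells or at a minimum of 800 genes.

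Nrp1, the co-receptor of Sema3a and of vascular endothelial growth factor, was found in neurons, astrocytes and endothelial cells, whereas oligodendrocytes had almost none. It had 78.9, 104, 167 and 158 CPM in neurons, 155, 155, 193 and 127 CPM in astrocytes and 302 and 605 CPM in the endothelial cells of libraries 1 and 2 (20 UMIs). Oligodendrocytes had 1 Nrp1 UMI in all 4 libraries (log2 fold change -7.05, SE 0.49, adjusted p = 5.97e-46, ratio 0.00560, interval 0.000142 to 0.0313) and precursors 3 (log2 fold change -3.02, SE 0.61, adjusted p = 3.89e-06, ratio 0.171, interval 0.0351 to 0.500). Astrocytes and neurons overlapped (log2 fold change 0.47, adjusted p = 0.0687), while both endothelial values were above every neuronal value (log2 fold change 1.53, SE 0.43, adjusted p = 0.00141). Endothelial Nrp1 was the least stable of these, with a log2 fold change of -0.018 when cells were thinned to 1000 UMIs. That depth dropped shallower cells and left an endothelial sum in library 1 alone. Nrp2, which binds Sema3c and Sema3g and was tested without the filter, had 60.4, 55.6, 86.3 and 60.1 CPM in neurons and was lower in oligodendrocytes (7.45 ± 7.16 CPM; log2 fold change -2.83, SE 0.35, adjusted p = 6.94e-15) and astrocytes (4.57 ± 5.29 CPM; log2 fold change -3.78, SE 0.66, adjusted p = 1.05e-07, ratio 0.0841, interval 0.0102 to 0.305). In precursors Nrp2 was 84.5 ± 29.1 CPM, with overlap (log2 fold change -0.53, adjusted p = 0.559), and in endothelial cells 3 UMIs were counted. Without library 3, Nrp1 in oligodendrocytes had a log2 fold change of -6.31. Library 4 held the only UMIs of Nrp1 in oligodendrocytes. Without library 2 or 3, Nrp1 in precursors had a log2 fold change of -4.41 and -2.16 respectively. Nrp1 in endothelial cells was not called without library 1 (log2 fold change 1.70), with thinned cells or at a minimum of 800 genes.

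Netrin-1 and its receptors were spread over different classes. Ntn1, the secreted ligand of Dcc and the Unc5 receptors, had 94.5, 169, 121 and 160.0 CPM in precursors (20 UMIs) and 1.48, 1.98, 4.65 and 2.37 CPM in neurons, with no overlap (log2 fold change 5.28, SE 0.66, adjusted p = 1.68e-14). Unc5b had 147, 130.0, 332 and 203 CPM in oligodendrocytes, 4.44, 2.98, 7.96 and 7.57 CPM in neurons and 1 UMI in astrocytes (log2 fold change 5.23, SE 0.23, adjusted p = 5.38e-112). Precursors had no Unc5b UMI, and endothelial cells 50.2 and 227 CPM from 5 UMIs (log2 fold change 3.96, SE 1.03, adjusted p = 5.41e-04). The fitted log2 fold change of endothelial Unc5b changed sign, to -4.73 with a minimum of 800 genes per cell and -2.99 with cells thinned to 1000 UMIs. Under both settings library 1 alone gave an endothelial sum, of 11 cells, so these values do not settle the direction. Unc5d had 124, 125, 246 and 231 CPM in neurons, above every value in oligodendrocytes (4 UMIs; log2 fold change -5.83, SE 0.36, adjusted p = 2.71e-58), astrocytes (1 UMI; log2 fold change -5.89, SE 0.63, adjusted p = 5.11e-20, ratio 0.0160, interval 0.000405 to 0.0893) and precursors (3 UMIs; log2 fold change -3.57, SE 0.56, adjusted p = 1.83e-09, ratio 0.118, interval 0.0243 to 0.345), with no endothelial UMI (at least 2.19-fold lower). Unc5c had 94.5, 169, 202 and 107 CPM in precursors against 22.4, 26.8, 51.1 and 33.1 CPM in neurons (log2 fold change 1.71, SE 0.44, adjusted p = 2.96e-04), 38.3 ± 20.6 CPM in oligodendrocytes (log2 fold change 0.32, adjusted p = 0.298) and no UMI in astrocytes (at least 3.77-fold lower), and its exons overlap a gene on the opposite strand. Unc5b in endothelial cells was not called without library 2 (log2 fold change 3.21), with thinned cells or at a minimum of 800 genes. Without library 1, Unc5b in endothelial cells had a log2 fold change of 5.13. Without library 3, Unc5d in astrocytes had a log2 fold change of -5.12. Library 2 held the only UMIs of Unc5d in astrocytes. Unc5d in endothelial cells was not called without library 1 (adjusted p = 0.124) or with thinned cells. Unc5c in precursors was not called with thinned cells. Unc5c in astrocytes was not called at a minimum of 800 genes.

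Without the filter, Unc5a, whose exons overlap an antisense gene, had 30.5 ± 9.39 CPM in neurons and no UMI in oligodendrocytes (at least 15.1-fold lower) or astrocytes (at least 3.64-fold lower). Dcc was low, with 70 UMIs in neurons (8.196 ± 3.29 CPM) and 1 to 3 UMIs in the glial classes, and did not pass against any. Ntn4, a laminin-like netrin of basement membranes, had 126 and 75.6 CPM in endothelial cells (6 UMIs; log2 fold change 3.94, SE 1.05, adjusted p = 0.00188) and 18.2 ± 15.0 CPM in astrocytes, against 4.11 ± 1.47 CPM in neurons. Ntn3 had 7.70 ± 2.46 CPM in neurons and 1 UMI in oligodendrocytes (log2 fold change -2.96, ratio 0.0931, interval 0.00232 to 0.537), and its exons overlap other genes on both strands. Ntng1, a synaptic netrin-G protein, had 29.4 ± 7.31 CPM in neurons and was lower in oligodendrocytes (log2 fold change -4.96, SE 0.70, adjusted p = 7.37e-12, ratio 0.0220, interval 0.000556 to 0.124), precursors (log2 fold change -2.90, ratio 0.224, interval 0.00565 to 1.26) and astrocytes (log2 fold change -2.62, ratio 0.182, interval 0.0220 to 0.665), while Ntng2 had 1 neuronal UMI. All 3 Slits were found in neurons, with Slit2 at overlapping levels in astrocytes. Slit1 had 20.4 ± 6.11 CPM in neurons and 1 UMI in oligodendrocytes (log2 fold change -4.37, ratio 0.0343, interval 0.000863 to 0.193), and Slit2 32.0 ± 11.5 CPM in neurons, 30.3 ± 13.9 CPM in astrocytes and no UMI in oligodendrocytes (at least 15.1-fold lower). Slit3 had 39 UMIs in neurons and did not pass against any class. Robo1, a Slit receptor, had 32.3, 31.3, 68.4 and 41.2 CPM in neurons, 45.2 ± 36.1 CPM in astrocytes and 74.4 ± 22.5 CPM in precursors, and was lower in oligodendrocytes alone (8.21 ± 6.21 CPM; log2 fold change -2.10, SE 0.37, adjusted p = 6.73e-08), since endothelial cells, with 0 UMIs, did not pass. Robo2 had 65.9, 55.6, 68.4 and 50.6 CPM in neurons and was lower in oligodendrocytes (5 UMIs; log2 fold change -3.94, SE 0.44, adjusted p = 1.65e-18) and astrocytes (2 UMIs; log2 fold change -3.66, ratio 0.0876, interval 0.0106 to 0.318). The same fit also called Robo2 lower in precursors and endothelial cells. Robo4, the Robo of vascular endothelium, had 176 and 75.6 CPM in endothelial cells (8 UMIs), 1 UMI in neurons and none in glia (log2 fold change 7.71, SE 1.62, adjusted p = 3.61e-05, ratio 916, interval 123 to 40636). Unc50, matched by name, had 165 ± 23.6 CPM in oligodendrocytes and 85.7 ± 15.3 CPM in neurons (log2 fold change 1.12).

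Oligodendrocyte precursors were compared with oligodendrocytes, the mature stage of the same lineage. Precursors had more of Ntn1, Sema5b, Epha5, Plxna2, Plxnc1, Sema5a and Unc5c, and oligodendrocytes more of Unc5b, Efnb3, Ephb1, Sema4d and Sema6a. Of the 25 genes tested, 9 were higher and 6 lower in precursors, where 43.3% of all genes passed (24.5% higher, 18.8% lower), with a median log2 fold change of -0.65 (0.00 with genes at 0 UMIs at their bound; all genes, 0.10). The ligands Sema5b and Ntn1 had no UMI in 917 oligodendrocytes, so that precursors were at least 105-fold higher in Sema5b and at least 67.7-fold higher in Ntn1. The receptor Unc5b was the reverse, with 0 UMIs in 134 precursors, at least 10.3-fold lower than in oligodendrocytes. Ntn1 and its receptor Unc5b were therefore not detected in the same class of this lineage. Epha5 (log2 fold change 4.25, SE 0.43, adjusted p = 3.83e-22), Plxna2 (log2 fold change 3.31, SE 0.65, adjusted p = 2.05e-06) and Plxnc1 (log2 fold change 3.61, SE 0.78, adjusted p = 2.11e-05) were higher in every library of precursors, without overlap. Held-out neuronal markers in precursors stood together at 7.26% of their neuronal level. Single markers ranged from 2.91% (Scg2) to 20.3% (Camk2b) of it. The part of neuronal RNA in the precursor values was not tested. Epha5 in precursors was 293 CPM against 351 in neurons and Plxna2 87.9 against 143. Sema5a (log2 fold change 1.94, SE 0.42, adjusted p = 2.11e-05) and Unc5c (log2 fold change 1.40, SE 0.46, adjusted p = 0.00673) were higher by smaller amounts. Efnb3 (log2 fold change -4.36, SE 0.35, adjusted p = 5.32e-34) and Ephb1 (log2 fold change -3.44, SE 0.61, adjusted p = 9.69e-08, ratio 0.134, interval 0.0275 to 0.397) were lower in precursors with no overlap, as was Sema6a (log2 fold change -1.28, SE 0.28, adjusted p = 2.36e-05), and Sema4d was lower in 4 of 4 libraries (log2 fold change -1.94, SE 0.62, adjusted p = 0.00497). Plxnb3 differed little (log2 fold change -1.05, SE 0.40, adjusted p = 0.0210) and not in the same direction in all libraries, as seen in its values above. Sema3d was higher in precursors in 3 of 4 libraries (log2 fold change 2.54) and Nrp1 in 2 of 4 (4.03, ratio 30.5, interval 2.45 to 1599), from 3 and 1 UMIs. At a class gate ratio of 4 the fitted log2 fold change of Nrp1 was -2.55. Without the filter, Nrp2 (log2 fold change 2.30, SE 0.67, adjusted p = 0.00515) and Robo1 (log2 fold change 2.15, SE 0.65, adjusted p = 0.00812) were also higher in precursors in every library, and Efna1 lower (log2 fold change -3.48, ratio 0.172, interval 0.00428 to 0.997, from 1 UMI). That fit called 13 higher and 9 lower of 68 (all genes, 16.2%, with 6.8% and 9.45%), with Unc50 among the 9. Plxnc1 was not called with thinned cells or at a minimum of 800 genes. Without library 1, 2 or 3, Plxnc1 had a log2 fold change of 3.00, 4.22 and 2.99 respectively. Sema5a was not called at a class gate ratio of 4. Unc5c was not called without library 1, 2 or 3 (log2 fold change 1.09, 1.07 and 1.19), with thinned cells or with no low-count filter. Without library 3, Efnb3 had a log2 fold change of -5.62. Sema4d was not called without library 1 (log2 fold change -1.56) or with thinned cells. Without library 3, Sema4d had a log2 fold change of -2.99. Plxnb3 was not called without library 1 or 4 (log2 fold change -0.97 and -1.07), under DESeq2 or with no library block. Nrp1 was not called without library 2 (log2 fold change 2.34), with thinned cells, at a minimum of 800 genes, with no low-count filter, at a class gate ratio of 4 or with doublets kept. Without library 4, Nrp1 had a log2 fold change of 6.10.

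Signalling partners of these receptors were taken from 4 lists chosen with earlier results of these data known. Of 19 genes listed for semaphorin and plexin signalling 8 were tested against neurons, with 3 higher and 4 lower in oligodendrocytes, 3 higher and 4 lower in astrocytes, 2 higher and 3 lower in precursors and 2 higher and 3 lower in endothelial cells. Crmp1, a collapsin response mediator, was lower in oligodendrocytes (4.77 against 277 CPM, log2 fold change -5.73) and astrocytes (15.5 against 277 CPM, log2 fold change -4.01). Mical1, an oxidase that takes actin apart downstream of plexins, and Farp1 were higher in astrocytes (80.02 against 1.34 CPM, log2 fold change 5.96, and 181 against 12.6 CPM, log2 fold change 3.87). Of 18 genes for ephrin and Eph signalling 12 were tested, with 3 higher and 8 lower in oligodendrocytes, 2 higher and 7 lower in astrocytes, 1 higher and 8 lower in precursors and 0 higher and 5 lower in endothelial cells. Ngef, the ephexin bound by EphA4, was lower in oligodendrocytes (1.23 against 96.3 CPM, log2 fold change -5.85), and Chn2, a Rac inhibitor, was higher there (429 against 115 CPM, log2 fold change 2.04) and lower in astrocytes (3.24 against 115 CPM, log2 fold change -5.24).

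Of 17 genes for netrin, Slit and Robo signalling 12 were tested, with 5 higher and 7 lower in oligodendrocytes, 4 higher and 4 lower in astrocytes, 3 higher and 4 lower in precursors and 3 higher and 3 lower in endothelial cells. Dock1, a Rac activator recruited by Dcc, was higher than in neurons in astrocytes (112 against 1.74 CPM, log2 fold change 6.10), precursors (113 against 1.74 CPM, log2 fold change 5.60), oligodendrocytes (72.0 against 1.74 CPM, log2 fold change 5.45) and endothelial cells (239 against 2.11 CPM, log2 fold change 6.44). Ablim1, an actin-binding protein, was lower in oligodendrocytes (1.34 against 87.3 CPM, log2 fold change -5.73). Of 25 other cues and receptors 16 were tested, with 7 higher and 9 lower in oligodendrocytes, 5 higher and 8 lower in astrocytes, 6 higher and 3 lower in precursors and 0 higher and 9 lower in endothelial cells. Cntn2, an adhesion protein of myelinated axons, was higher in oligodendrocytes (661 against 39.1 CPM, log2 fold change 4.21), and Rgma, a repulsive cue bound by neogenin, in astrocytes (198 against 4.44 CPM, log2 fold change 5.43). Dscam, a homophilic receptor that also binds netrin, was higher in precursors (346 against 64.7 CPM, log2 fold change 2.11) and lower in oligodendrocytes (6.62 against 64.7 CPM, log2 fold change -3.12). Between the 2 stages of the lineage, 9 of these 16 were higher and 4 lower in precursors, against 3 and 2 of 8, 4 and 3 of 12 and 4 and 3 of 12 for the other lists, beside 43.3% of all genes in either direction. Each of these counts is to be read against the shares of all genes given above for the same classes.

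Within neurons, 2157 GABAergic and 81 glutamatergic cells were gated by Gad1, Gad2 and Slc32a1 against Slc17a6 and Slc17a7. Between these transmitter classes 2 guidance genes, Sema3c and Sema5a, were lower in GABAergic cells and none was called higher. Glutamatergic sums came from 45, 17 and 12 cells of libraries 1, 2 and 4, with a median of 5089 UMIs per cell against 3499 in GABAergic cells. Of 41 guidance genes tested, 2 passed (2.09% of all genes, with 1.21% higher and 0.888% lower) and 8 had an unadjusted p under 0.05, with a median log2 fold change of -0.04 (all genes, 0.06). Sema3c had 67.0, 144 and 160.3 CPM in glutamatergic cells and 30.3, 40.6, 26.3 and 32.3 CPM in the GABAergic cells of libraries 1 to 4 (log2 fold change -1.49, SE 0.33, adjusted p = 9.78e-04). Sema5a had 87.1, 52.5 and 206 CPM and 34.2, 47.9, 62.5 and 52.9 CPM (log2 fold change -1.20, SE 0.32, adjusted p = 0.0166). Nrp1 and Nrp2, co-receptors of secreted semaphorins such as Sema3c, did not pass, with 126 ± 42.1 CPM of Nrp1 in GABAergic and 132 ± 46.7 CPM in glutamatergic cells (log2 fold change -0.32, adjusted p = 0.828), and 62.0 ± 12.4 CPM and 109.7 ± 37.3 CPM of Nrp2 (log2 fold change -0.67, adjusted p = 0.504). Without the library block 1 gene passed. Sema3c was not called without library 1 (log2 fold change -1.88), with thinned cells or at a subtype gate of 3 UMIs. Sema5a was not called without library 1 or 4 (log2 fold change -1.01 and -1.04), under DESeq2, with no library block, at a mitochondrial limit of 5% or at a subtype gate of 3 UMIs.

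Among GABAergic neurons, 1210 were gated to 11 subtypes by 1 to 3 marker genes each, most of them named after a pair. They were 225 Ppp1r1b/Crym, 218 Sst/Npy, 132 Tac2/Ebf1, 131 Crh/Wif1, 126 Cck/Greb1, 90 Tshz1/Foxp2, 83 Zic1/Zic4, 73 Slc17a8, 67 Six3/Ifi27l2a, 37 Lhx8/Rorb and 28 Prkcd cells. Each of the first 9 was compared with the pooled cells of all other gated subtypes, so the contrasts share cells and are not independent, and Lhx8/Rorb and Prkcd cells reached 10 cells in too few libraries for a test. Tac2/Ebf1 and Six3/Ifi27l2a sums came from libraries 1, 2 and 4. Nrp1 passed in 5 of the 9 subtypes, Sema3a in 4, and Epha4, Efnb3 and Unc5d in 3 each. Over the 9 contrasts 40 differences of guidance genes passed, against 16 without the library block, 14 under DESeq2 and 5 with cells thinned to 1000 UMIs, so single calls depend on these settings. With thinned cells only 6 to 10 guidance genes per subtype were tested, against 29 to 37, so that count also reflects genes not tested. Leaving out library 1, 2, 3 or 4 gave 19, 25, 27 and 26. At the main settings the share of all genes that passed ran from 0.728% (Tshz1/Foxp2) to 17.7% (Ppp1r1b/Crym). All-gene shares of subtype contrasts under the other settings are not given here, so a general loss of calls is not told apart from a loss among guidance genes.

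**Figure D3:**
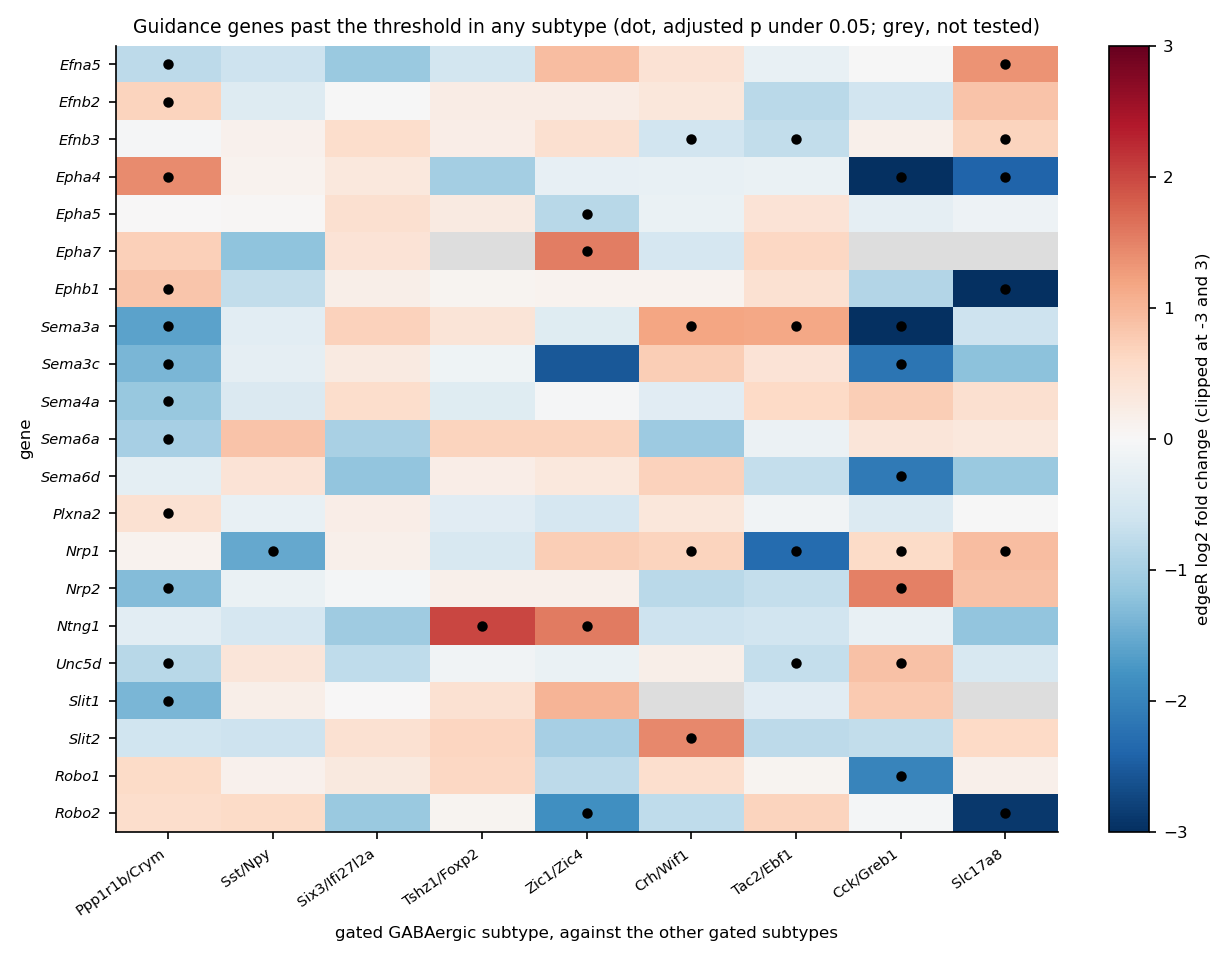
Difference of each GABAergic subtype from the other gated subtypes, as edgeR log2 fold change (colour, clipped at -3 and 3), for the 21 guidance genes that passed in at least 1 subtype (rows); columns are subtypes, dots mark an adjusted p under 0.05 and grey cells were not tested. Ppp1r1b/Crym cells carry the most dots (12) and Six3/Ifi27l2a cells none; a colour without a dot did not pass.

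Ppp1r1b/Crym cells, gated in part by the striatal signalling protein DARPP-32 (Ppp1r1b) and Crym, had more Epha4, Ephb1, Efnb2 and Plxna2 and less Sema3a, Sema3c and Nrp2, with 4 higher and 8 lower of 31 tested (all genes, 17.7%, with 8.98% higher and 8.74% lower). Epha4 had 219, 242, 494 and 443 CPM in these cells (349.6 ± 139 CPM (SD, n = 4); log2 fold change 1.42, SE 0.14, adjusted p = 4.92e-10), higher than in the other subtypes of the same library in 4 of 4. Ephb1 had 45.6, 60.5, 61.7 and 64.9 CPM (log2 fold change 0.84, SE 0.27, adjusted p = 0.0280) and its ligand Efnb2 62.7, 67.2, 117 and 75.7 CPM (log2 fold change 0.66, SE 0.23, adjusted p = 0.0405), and Plxna2 was higher by less (log2 fold change 0.46, SE 0.15, adjusted p = 0.0307). Sema3a had 8.55, 0, 27.4 and 16.2 CPM (log2 fold change -1.61, SE 0.44, adjusted p = 0.00865) and Sema3c 25.6, 0, 6.86 and 10.8 CPM (log2 fold change -1.38, SE 0.43, adjusted p = 0.0221). The neuropilin Nrp2 was lower at 17.1, 33.6, 41.1 and 32.4 CPM (log2 fold change -1.30, SE 0.28, adjusted p = 9.47e-04), whereas Nrp1 had 140.1 ± 49.0 CPM and did not pass (log2 fold change 0.10, adjusted p = 0.754). Slit1 (9.598 ± 7.34 CPM; log2 fold change -1.38, SE 0.49, adjusted p = 0.0491) and Sema4a (20.2 ± 11.8 CPM; log2 fold change -1.14, SE 0.35, adjusted p = 0.0184) were lower too. Also lower, by smaller amounts or not in every library, were Efna5 (-0.79) and Unc5d (-0.84) on the log2 scale, and Sema6a (23.5 ± 11.3 CPM against 48.9 CPM). Sema6a was not called without library 1, 3 or 4 (log2 fold change -1.12, -0.78 and -0.73), under DESeq2, with no library block, at a minimum of 800 genes, at a class gate of 5 UMIs or with doublets kept. Ephb1 was not called without library 1, 2, 3 or 4 (log2 fold change 0.68, 0.84, 0.87 and 0.92), under DESeq2, with no library block or with no low-count filter. Efnb2 was not called without library 1, 2, 3 or 4 (log2 fold change 0.82, 0.68, 0.56 and 0.57), under DESeq2, with no library block or with no low-count filter. Plxna2 was not called without library 1 or 3 (log2 fold change 0.41 and 0.35), under DESeq2, with no library block, with thinned cells or with no low-count filter. Sema3a was not called without library 1 or 2 (log2 fold change -1.49 and -1.22) or under DESeq2. Sema3c was not called without library 2, 3 or 4 (log2 fold change -0.98, -1.35 and -1.29), under DESeq2 or with no library block. Without library 1, Sema3c had a log2 fold change of -2.55. Slit1 was not called without library 2, 3 or 4 (log2 fold change -1.37, -1.79 and -1.20), under DESeq2, with no library block or at a minimum of 800 genes. Sema4a was not called without library 1 or 4 (log2 fold change -1.08 and -1.22), under DESeq2 or with no library block. Efna5 was not called without library 1, 2, 3 or 4 (log2 fold change -0.84, -0.77, -0.75 and -0.82), under DESeq2, with no library block or with doublets kept. Unc5d was not called with no library block or with thinned cells.

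Cck/Greb1 cells were nearly without Epha4 and Sema3a and had more Nrp2 and Unc5d, with 3 higher and 5 lower of 29 tested (all genes, 7.12%, with 3.61% higher and 3.5% lower). Epha4 had 9.39, 0, 15.8 and 8.95 CPM in Cck/Greb1 cells (8 UMIs; log2 fold change -4.15, SE 0.32, adjusted p = 9.33e-19), below every library of Ppp1r1b/Crym cells. No Sema3a UMI was found, at least 10.3-fold lower than in the other subtypes, and Sema3c had 9.39, 19.1, 3.96 and 0 CPM (log2 fold change -2.20, SE 0.50, adjusted p = 0.00113). Nrp2 had 147, 95.4, 158 and 152 CPM (log2 fold change 1.51, SE 0.20, adjusted p = 1.18e-08), all above its values in Ppp1r1b/Crym cells, and Nrp1 135, 162, 182 and 259.6 CPM (log2 fold change 0.58, SE 0.17, adjusted p = 0.0216), higher in 3 of 4 libraries. The netrin receptor Unc5d had 219, 219, 388 and 367 CPM (log2 fold change 0.88, SE 0.14, adjusted p = 6.01e-07). Sema6d (7.24 ± 7.82 CPM; log2 fold change -2.12, SE 0.57, adjusted p = 0.00821) and the Slit receptor Robo1 (13.02 ± 11.3 CPM; log2 fold change -1.97, SE 0.42, adjusted p = 4.37e-04) were lower, while Robo2 had 57.6 ± 23.2 CPM and did not pass (log2 fold change -0.05, adjusted p = 0.951). Sema3c was not called under DESeq2 or at a mitochondrial limit of 5%. Nrp1 was not called without library 1, 2 or 4 (log2 fold change 0.42, 0.58 and 0.48), under DESeq2, with no library block, at a mitochondrial limit of 5%, with thinned cells or with no low-count filter. Unc5d was not called with no library block or with thinned cells. Sema6d was not called without library 1 (log2 fold change -1.71) or under DESeq2. Robo1 was not called without library 3 (log2 fold change -1.65), under DESeq2 or with no library block.

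Slc17a8 cells, which carry the vesicular glutamate transporter VGLUT3, had more Efna5 and Nrp1 and less Epha4, Ephb1 and Robo2, with 3 higher and 3 lower of 29 tested (all genes, 4.54%, with 1.82% higher and 2.72% lower). Efna5 had 134, 129, 264 and 178 CPM (log2 fold change 1.36, SE 0.26, adjusted p = 4.14e-05) and its receptor Epha4 13.4, 23.5, 68.9 and 23.7 CPM (log2 fold change -2.41, SE 0.34, adjusted p = 1.16e-08). Epha5, also a receptor of Efna5, had 303 ± 42.9 CPM and did not pass (log2 fold change -0.16, adjusted p = 0.768). Nrp1 had 161, 223, 333 and 237 CPM (log2 fold change 0.94, SE 0.21, adjusted p = 6.59e-04) and Efnb3 241, 270.1, 241 and 297 CPM (log2 fold change 0.67, SE 0.19, adjusted p = 0.0127). Ephb1 rested on 1 UMI (log2 fold change -3.71, SE 0.92, adjusted p = 0.00335, ratio 0.0833, interval 0.00210 to 0.470), and Robo2 had 13.4, 11.7, 11.5 and 0 CPM (log2 fold change -2.89, SE 0.61, adjusted p = 3.03e-04, ratio 0.132, interval 0.0270 to 0.388). Slit2, a ligand of Robo2, had 44.4 ± 23.7 CPM (log2 fold change 0.59, adjusted p = 0.655). Without library 3, Epha4 had a log2 fold change of -3.01. Nrp1 was not called with no library block or with thinned cells. Efnb3 was not called without library 1, 2 or 4 (log2 fold change 0.61, 0.64 and 0.69), under DESeq2, with no library block, at a mitochondrial limit of 5%, with thinned cells or with no low-count filter. Ephb1 was not called without library 3 (log2 fold change -3.23), under DESeq2 or at a mitochondrial limit of 5%. Library 4 held the only UMIs of Ephb1. Robo2 was not called under DESeq2 or at a mitochondrial limit of 5%.

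Crh/Wif1 cells, which express corticotropin-releasing hormone, had more Slit2 and Sema3a and less Efnb3, with 3 higher and 1 lower of 32 tested (all genes, 6.32%, with 2.91% higher and 3.41% lower). Slit2 had 56.3, 65.6, 64.1 and 68.4 CPM, an even level across libraries (log2 fold change 1.44, SE 0.31, adjusted p = 0.00126). Its receptors Robo1 (59.0 ± 41.5 CPM; log2 fold change 0.50, adjusted p = 0.398) and Robo2 (43.2 ± 20.9 CPM; log2 fold change -0.76, adjusted p = 0.130) did not pass. Sema3a had 41.3, 59.0, 112 and 74.1 CPM (log2 fold change 1.18, SE 0.30, adjusted p = 0.00869), and its co-receptor Nrp1 143, 184, 168 and 234 CPM (log2 fold change 0.67, SE 0.18, adjusted p = 0.0102), higher in 3 of 4 libraries. Efnb3 was lower at 101, 65.6, 120.2 and 177 CPM (log2 fold change -0.57, SE 0.18, adjusted p = 0.0434). Slit2 was not called without library 1 (log2 fold change 1.27). Sema3a was not called without library 3 or 4 (log2 fold change 0.88 and 1.10), under DESeq2, with no library block or at a mitochondrial limit of 5%. Nrp1 was not called without library 1, 2 or 4 (log2 fold change 0.54, 0.61 and 0.61), under DESeq2, with no library block, at a mitochondrial limit of 5% or with thinned cells. Efnb3 was not called without library 1, 2, 3 or 4 (log2 fold change -0.63, -0.38, -0.57 and -0.74), under DESeq2, with no library block, at a mitochondrial limit of 5%, with thinned cells, at a minimum of 800 genes, with doublets kept or with DESeq2 size factors.

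Tac2/Ebf1 cells had little Nrp1 and more Sema3a, with 1 higher and 3 lower of 34 tested (all genes, 2.67%, with 1.29% higher and 1.37% lower). Nrp1 had 25.1, 7.17 and 27.1 CPM in libraries 1, 2 and 4 (log2 fold change -2.31, SE 0.29, adjusted p = 2.05e-06), below every library of Slc17a8 cells. Sema3a, its ligand, had 62.7, 64.5 and 47.5 CPM (log2 fold change 1.15, SE 0.32, adjusted p = 0.0427). Efnb3 (60.6, 122 and 176 CPM; log2 fold change -0.75, SE 0.20, adjusted p = 0.0290) and Unc5d (68.9, 100.3 and 163 CPM; log2 fold change -0.71, SE 0.18, adjusted p = 0.0248) were lower. Nrp2 had 42.5 ± 19.2 CPM and did not pass (log2 fold change -0.70, adjusted p = 0.283). Nrp1 was not called with thinned cells. Without library 1, Nrp1 had a log2 fold change of -3.02. Sema3a was not called without library 1 or 2 (log2 fold change 0.64 and 1.34), under DESeq2, with no library block, at a mitochondrial limit of 5%, at a minimum of 800 genes or with doublets kept. Efnb3 was not called without library 1 or 2 (log2 fold change -0.32 and -0.83), under DESeq2, with no library block, at a mitochondrial limit of 5% or with thinned cells. Unc5d was not called without library 1, 2 or 4 (log2 fold change -0.52, -0.81 and -0.76), under DESeq2, with no library block, at a mitochondrial limit of 5% or with thinned cells.

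In Sst/Npy cells, which carry interneuron peptides, Nrp1 was the 1 gene that passed, with 0 higher and 1 lower of 37 tested (all genes, 2.78%, with 1.63% higher and 1.15% lower) and 7 at an unadjusted p under 0.05. Nrp1 had 35.1, 22.5, 56.0 and 62.3 CPM (log2 fold change -1.53, SE 0.23, adjusted p = 3.11e-06), all below the lowest value in Cck/Greb1 cells. With thinned cells 8 guidance genes were tested in Sst/Npy cells and 0 passed. Epha4 varied between libraries, at 85.9, 67.6, 308 and 302 CPM (log2 fold change 0.11, adjusted p = 0.931), as did Unc5d at 137, 128, 378 and 316 CPM (log2 fold change 0.36, adjusted p = 0.251), each low in libraries 1 and 2 and high in libraries 3 and 4, as in the sums of all neurons.

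Zic1/Zic4 cells had more Ntng1 and Epha7 and less Robo2 and Epha5, with 2 higher and 2 lower of 30 tested (all genes, 2.28%, with 0.843% higher and 1.44% lower). Ntng1 had 44.6, 89.5, 120.3 and 34.6 CPM (log2 fold change 1.56, SE 0.43, adjusted p = 0.0341) and Epha7 22.3, 64.0, 60.1 and 104 CPM (log2 fold change 1.54, SE 0.44, adjusted p = 0.0470). Robo2 had 33.5, 25.6, 15.0 and 0 CPM (log2 fold change -1.85, SE 0.52, adjusted p = 0.0406) and Epha5 123, 205, 331 and 149.9 CPM (log2 fold change -0.82, SE 0.19, adjusted p = 0.00616). Efna5, a ligand of both EphA receptors, had 133 ± 28.6 CPM and did not pass (log2 fold change 0.92, adjusted p = 0.0843). Ntng1 was not called without library 1, 2 or 3 (log2 fold change 1.69, 1.31 and 1.32), under DESeq2, with no library block, at a subtype gate of 3 UMIs or with no low-count filter. Epha7 was not called without library 1, 2, 3 or 4 (log2 fold change 1.88, 1.29, 1.54 and 1.37), under DESeq2, with no library block, at a subtype gate of 3 UMIs, with no low-count filter or with doublets kept. Robo2 was not called without library 1, 2, 3 or 4 (log2 fold change -2.29, -2.10, -1.72 and -1.50), under DESeq2, with no library block, at a mitochondrial limit of 5% or at a subtype gate of 3 UMIs. Epha5 was not called without library 1 (log2 fold change -0.64), under DESeq2, with no library block or at a subtype gate of 3 UMIs.

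Tshz1/Foxp2 cells had more Ntng1, with 1 higher and 0 lower of 31 tested (all genes, 0.728%, with 0.322% higher and 0.406% lower) and 3 at an unadjusted p under 0.05. Ntng1 had 81.7, 106, 82.1 and 93.3 CPM (log2 fold change 2.01, SE 0.39, adjusted p = 0.00390), all above its values in Cck/Greb1 cells (28.2, 0, 23.8 and 26.9 CPM). Its partner Lrrc4c, the netrin-G ligand, had 135 CPM against 186 CPM in the other subtypes and did not pass (log2 fold change -0.66). Ntng1 was not called without library 1, 2 or 4 (log2 fold change 1.93, 1.90 and 1.98), at a mitochondrial limit of 5% or at a subtype gate of 3 UMIs.

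Six3/Ifi27l2a cells gave no call by edgeR (32 tested; all genes, 0.941%, with 0.209% higher and 0.732% lower) and none by DESeq2, with 5 genes at an unadjusted p under 0.05 by edgeR. Epha4 had 138, 175 and 264 CPM there in libraries 1, 2 and 4, Nrp1 73.1, 131 and 190.3 CPM and Sema3a 56.8, 58.2 and 43.9 CPM. The 37 Lhx8/Rorb cells had 168 and 120.5 CPM of Epha4, 89.6 and 161 CPM of Nrp1 and 190.3 and 301 CPM of Unc5d in libraries 2 and 4, and the 28 Prkcd cells, from 1 library with 10 cells or more, had 309, 34.3 and 103 CPM. These values are given without a test. Median log2 fold changes of the tested guidance genes lay between -0.20 (Tac2/Ebf1) and 0.20 (Tshz1/Foxp2), beside -0.03 to 0.01 for all genes.

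Ordered by mean level over the 9 subtypes, Epha4 went from Ppp1r1b/Crym cells (349.6 ± 139 CPM) through Six3/Ifi27l2a (192), Sst/Npy (191), Zic1/Zic4 (138), Crh/Wif1 (137), Tac2/Ebf1 (129), Tshz1/Foxp2 (91.2) and Slc17a8 (32.4) to Cck/Greb1 cells (8.55 ± 6.51 CPM). The values of neighbours in the middle of this order overlapped, while the values of Slc17a8 and Cck/Greb1 cells lay below all values of Ppp1r1b/Crym cells. Nrp1 went from Slc17a8 (239 ± 71.2 CPM) through Zic1/Zic4 (215), Cck/Greb1 (185), Crh/Wif1 (182), Ppp1r1b/Crym (140.1), Six3/Ifi27l2a (131), Tshz1/Foxp2 (94.9) and Sst/Npy (44.0) to Tac2/Ebf1 (19.8 ± 10.97 CPM), with Sst/Npy and Tac2/Ebf1 cells below all values of the Slc17a8, Cck/Greb1, Crh/Wif1 and Zic1/Zic4 cells. The 2 subtypes lowest in Epha4 were among the 3 highest in Nrp1, a description of 9 means from the same 4 libraries.

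**Figure D4:**
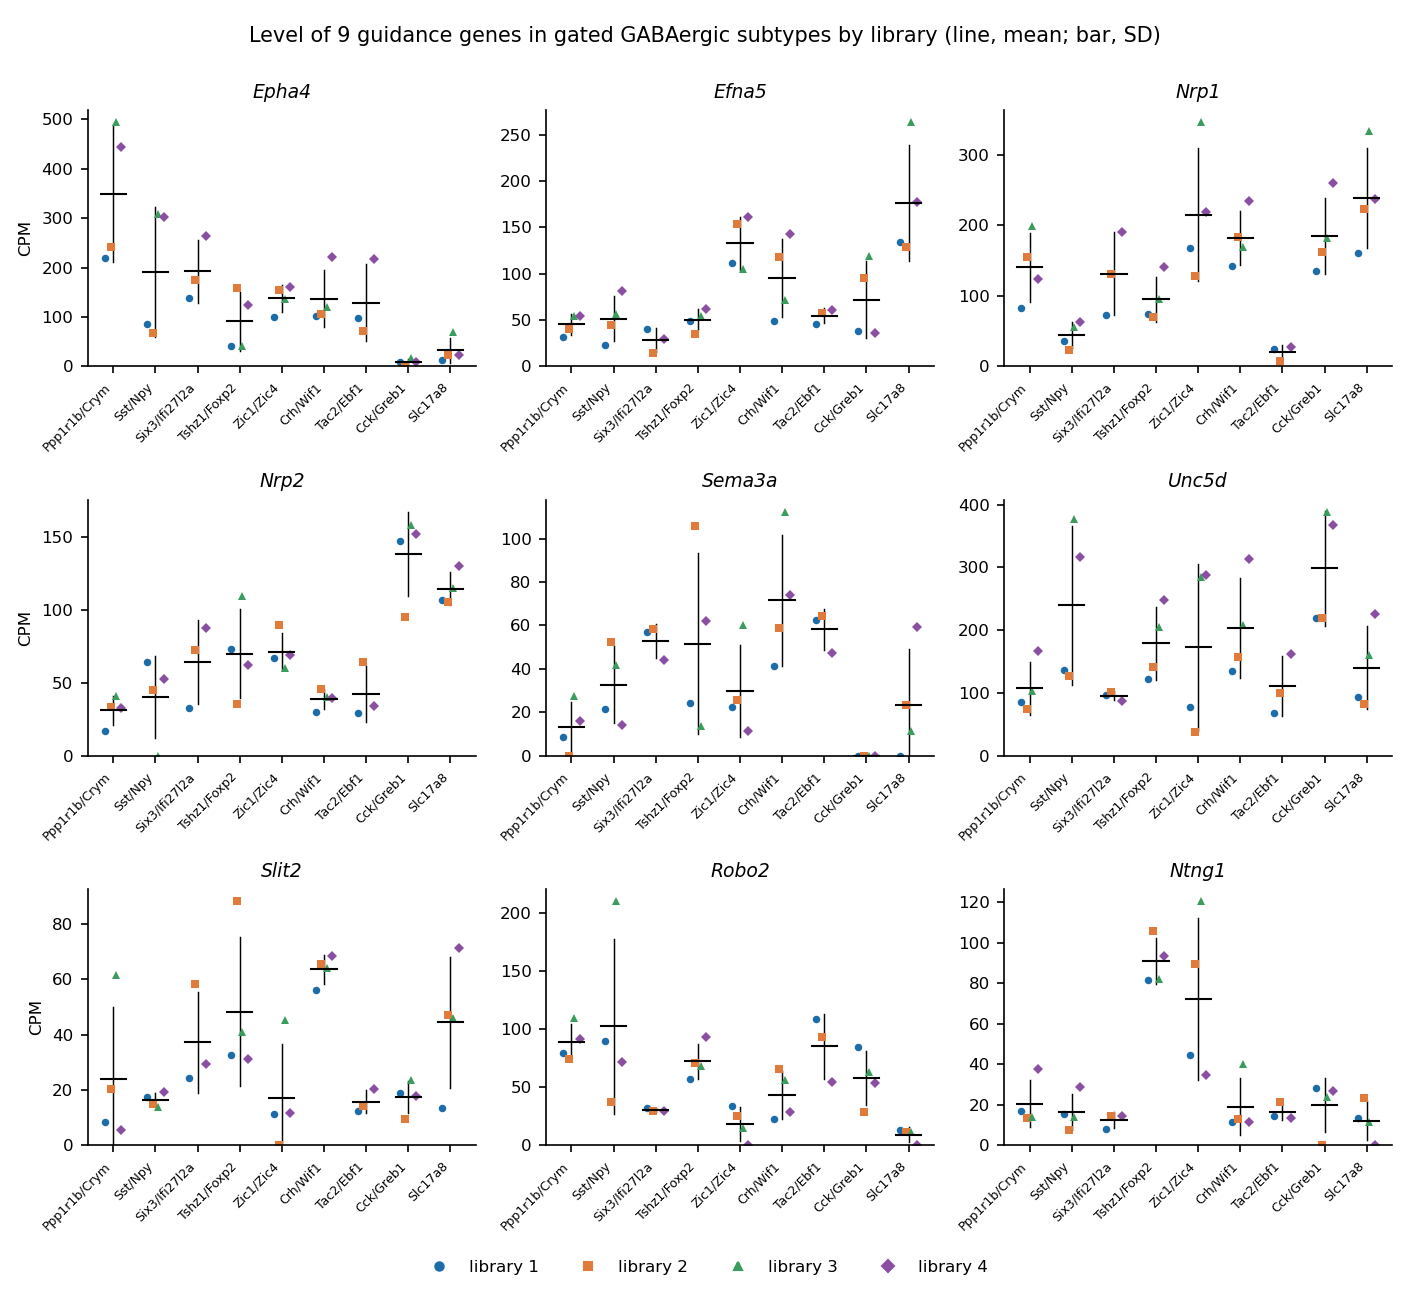
Level in CPM (vertical axis, from 0) of 9 guidance genes in 9 gated GABAergic subtypes (horizontal axis); each marker is the subtype sum of 1 library, horizontal lines are means and vertical bars SDs over the libraries with at least 10 cells (n = 4, or n = 3 for Six3/Ifi27l2a and Tac2/Ebf1). Epha4 is near 0 in Cck/Greb1 cells and highest in Ppp1r1b/Crym cells, Nrp1 is low in Sst/Npy and Tac2/Ebf1 cells, and Slit2 is tightly grouped in Crh/Wif1 cells.

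Of the signalling lists, the ephrin and Eph list had 5 higher and 1 lower of 14 in Ppp1r1b/Crym cells (all genes, 17.7%, with 8.98% higher and 8.74% lower). The other cues and receptors had 4 higher and 4 lower of 19 there, the semaphorin and plexin list 0 and 0 of 10, and the netrin, Slit and Robo list 2 and 0 of 12. Ngef, the exchange factor bound by EphA4, was among the higher genes there (269.6 against 76.5 CPM, log2 fold change 1.81), beside the higher Epha4, and was lower in Crh/Wif1 (40.7 against 116 CPM, log2 fold change -1.46) and Tac2/Ebf1 cells (40.5 against 114 CPM, log2 fold change -1.32). Chn1, a Rac inhibitor that acts behind EphA4, was higher in Ppp1r1b/Crym cells (782 against 359 CPM, log2 fold change 1.12) and lower in Cck/Greb1 cells (319 against 439 CPM, log2 fold change -0.44), where Epha4 was low. Epha4 itself was not called in Crh/Wif1 or Tac2/Ebf1 cells. In Slc17a8 cells, where Epha4 was low too, the ephrin and Eph list had 0 higher and 0 lower of 14 (all genes, 4.54%). A link between these genes and Epha4 was not tested. In Cck/Greb1 cells 3 of that list were higher and 2 lower of 14 (all genes, 7.12%, with 3.61% higher and 3.5% lower). Lrrc4c, the binding partner of netrin-G, was higher in Ppp1r1b/Crym cells (386 against 146 CPM, log2 fold change 1.36) and lower in Cck/Greb1 cells (122 against 193 CPM, log2 fold change -0.68). Enah, an actin regulator used by netrin and Slit receptors, was the 1 gene of its list called in Cck/Greb1 cells (139 against 44.3 CPM, log2 fold change 1.64). Between GABAergic and glutamatergic cells, the 4 lists gave 2 higher (Sipa1l1 and Chn2) and 1 lower (Chl1), where 2.09% of all genes passed.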

How the data were processed

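Single cells of BNST punches were profiled in 4 Drop-seq libraries, each 1 pool of 6 mice. The authors deposited raw UMI counts per gene and barcode. Per the submitters' processing notes, bcl2fastq 2.18.0.12, STAR 2.4.2a and Picard 2.2.4 were used with the build mm10 or GRCm38; their roles, the annotation, the strand and the rule for choosing barcodes are not given in the sources used here, so genes that overlap another gene's exons are uncertain.

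Barcodes with at least 400 genes and at most 10% mitochondrial UMIs were kept, and Scrublet (expected rate 0.05) removed 58 of 4239 as doublets. A class gate took at least 3 UMIs of a marker list and at least 2 times those of any other class. Transmitter and subtype gates took at least 2 UMIs and the same ratio. A further marker gene of the Ppp1r1b/Crym gate is not reported here. UMIs were summed per class and library with at least 10 cells, and tested by the quasi-likelihood method of edgeR 4.0.16 (R 4.3.3, TMM scaling, filterByExpr), with Benjamini-Hochberg adjustment over all genes tested and a threshold of 0.05. Library was a block because both sums of a comparison come from the same pool of mice, which pairs them by design. The SE of a log2 fold change was taken from it and its F statistic. The scripts were tested on simulated counts. DESeq2 1.42.0, other gates, filters and depths, and left-out libraries were alternatives. A gene at 0 UMIs is given as a bound from 3 counts over the class. The members and lists were chosen with earlier results of these data known. Named were the members past the threshold and changed alike in every library, up to 12 in each direction for a class and up to 5 for a transmitter class or subtype, with their known partners, and up to 3 genes per direction of a signalling list. Other members are named to account for all 68.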

Additional observations from a re-analysis of the deposited data

Results flagged for a closer look

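Among levels with 4 libraries, 45 sets of at least 50 CPM and 10 UMIs were searched for a library far from the others by Dixon's test, and 2 stood out, where chance gives 2.25. Nrp2 in neurons was 86.3 CPM in library 3, against 55.6 to 60.4 CPM in the other libraries. Epha5 in oligodendrocyte precursors was 165 CPM in library 1, against 323 to 347 CPM in the others.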

How the results depend on the processing

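The count of called differences between non-neuronal classes and neurons, 65 over 4 contrasts, was 31 with a mitochondrial limit of 5%, under which endothelial sums could not be fitted, 130 without the low-count filter and 56 to 78 with 1 library left out. In each of these contrasts 25 genes were tested, against 14 with the mitochondrial limit and 68 without the filter. All 25 genes tested differed among the 5 classes, as did 14 of 14 and 56 of 68 under these settings. With 1 library left out, this was 23 of 23 to 34 of 35 genes tested. Between precursors and oligodendrocytes 15 were called, and 14 to 18 with 1 library left out. Between GABAergic and glutamatergic neurons 2 were called, against 1 with the mitochondrial limit of 5%, 0 with a gate of 3 UMIs, 0 with cells thinned to 1000 UMIs, 1 under DESeq2, 1 without the replicate block (library) and 0 to 2 with 1 library left out. Among GABAergic subtypes 40 were called, against 23 with the mitochondrial limit of 5%, 5 with thinned cells, 14 under DESeq2, 16 without the replicate block and 19 to 27 with 1 library left out. Per subtype 29 to 37 genes were tested, against 18 to 28 with the mitochondrial limit and 6 to 10 with thinned cells. Between the transmitter classes 41 genes were tested, against 35 and 15. All-gene shares are not given beside the counts of this section. The counts therefore do not tell a general loss of calls from a loss among guidance genes. With a subtype gate of 3 UMIs, 8 of the 9 subtypes could be fitted. Endothelial Unc5b reversed to a log2 fold change of -4.73 with a minimum of 800 genes per cell and -2.99 with thinned cells. Endothelial Nrp1 reversed to -0.018 with thinned cells. Under both settings library 1 alone gave an endothelial sum, of 11 cells. Nrp1 of precursors against oligodendrocytes reversed to -2.55 with a class gate ratio of 4. The cause of these reversals was not tested. Of the values of 122 called fold changes under alternatives, 1393 kept direction and side of the threshold, 264 kept direction alone and 4 reversed. A call has no value under a setting where its gene or contrast was not tested. With thinned cells 59 values kept both, 33 kept direction alone and 2 reversed. With the mitochondrial limit of 5%, 61 kept both and 17 direction alone. A class gate of 5 UMIs, which changed little, kept both for 120. Values from the fit with no low-count filter are themselves an alternative and were not recomputed under others. No gene called between classes changed sign under the scalings tried. Depth limits the precursor and endothelial values most, where many rest on fewer than 10 UMIs, and thinning and a minimum of 800 genes also remove cells of the shallow classes, leaving 118 and 41 of 406 astrocytes, 64 and 62 of 134 precursors and 21 and 16 of 51 endothelial cells.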
